A study of Mus musculus with 6 samples.

Results

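The constant-region genes of antibodies and 2 genes of the cells that secrete them were measured in CD90.2-sorted retinal cells after optic nerve crush (ONC). The 10 genes were Ighm, Ighg1, Ighg2b, Ighg2c, Igha, Igkc, Iglc1, Iglc2, Jchain and Mzb1. They were chosen by name, without variable-region genes, after the Ensembl identifiers of the count table had been matched to gene symbols, and all 10 were found among its 32371 genes. The libraries came from adult C57BL/6J mice of both sexes aged 6 to 10 weeks, and the labels call the sorted cells RGCs (retinal ganglion cells). GFP mice received AAV2-GFP in the eye and Ezh2-Y726D mice received AAV2-Ezh2-Y726D, which drives a catalytically dead form of the histone methyltransferase Ezh2. In both groups the ONC followed the injection by 2 weeks, and viable CD90.2-positive cells were sorted from dissociated retinas 3 days after the crush. Each group had 3 libraries, and the sources used here do not state whether a library holds cells of 1 mouse or of several, so that p-values measure only the spread between these samples. CD90.2, the product of Thy1, is carried by RGCs and also by T cells, and no marker that would remove cells of the blood is named for the sort. In such bulk samples, fewer cells of a type and less RNA per cell cannot be told apart.

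An antibody joins a pair of heavy chains to a pair of light chains, and the constant region of the heavy chain sets its class. A B cell first uses Ighm, for IgM, and can switch its rearranged variable region to a downstream Ighg or Igha gene, while the light chain is either kappa, from Igkc, or lambda, from an Iglc gene. C57BL/6 mice carry Ighg2c where other strains carry Ighg2a. Jchain encodes the J chain, which links the tails of secreted IgM and IgA into polymers, and Mzb1 encodes a protein of the endoplasmic reticulum in marginal zone B cells and plasma cells that aids antibody assembly. Plasma cells are known for very high levels of these transcripts, so a few cells can give a measurable signal in a tissue.

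The 5 heavy-chain genes lie in 1 cluster on the minus strand of mouse chromosome 12 (GRCm38), in the order Ighm (chr12:113418558-113422730), Ighg1 (chr12:113325240-113330523), Ighg2b (chr12:113302965-113307933), Ighg2c (chr12:113285325-113288932) and Igha (chr12:113254830-113260236). The IgG genes are close copies. The coding bases of Ighg2b and Ighg2c were 85.9% identical, those of Ighg1 and Ighg2b 75.7% and those of Ighg1 and Ighg2c 76.5%. For each heavy-chain gene, runs of 50 bases were taken from the transcript of its secreted form. They were searched for in the transcripts of the other members, Iglc3, Ighg3 and Ighd, and in no other gene. Of these runs, 5.26% of those of Ighg2b also occurred in Ighg2c and 5.27% of those of Ighg2c in Ighg2b. None of those of Ighm, Ighg1 or Igha recurred in the genes searched. Over most of the secreted-form transcripts, a run of this length thus told Ighg2b and Ighg2c apart. Exonic bases outside these transcripts were not searched. The hinge, the exon that joins the arms of the antibody to its stem, is where the IgG genes differ most, and it is shown for the 3 IgG genes so that these close copies can be told apart. Each run is written 5′ to 3′ on the coding strand, from GENCODE vM21 transcripts, with the hinge exon in capitals and 15 bases of the neighbouring exons in lower case.
Ighg1, hinge at chr12:113329844-113329882: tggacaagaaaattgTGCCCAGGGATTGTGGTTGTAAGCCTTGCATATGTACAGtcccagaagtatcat
Ighg2b, hinge at chr12:113307261-113307326: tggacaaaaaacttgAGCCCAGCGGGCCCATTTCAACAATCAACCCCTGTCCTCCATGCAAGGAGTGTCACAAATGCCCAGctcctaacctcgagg
Ighg2c, hinge at chr12:113288263-113288325: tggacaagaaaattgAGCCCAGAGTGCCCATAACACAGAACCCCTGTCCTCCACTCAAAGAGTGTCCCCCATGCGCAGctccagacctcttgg
The hinges were 39, 66 and 63 bases long. Those of Ighg2b and Ighg2c matched at 51 of 66 aligned positions (77.3%), and the hinge of Ighg1 matched them at 43.9% and 41.3% of positions.

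The secreted forms of IgM and IgA end in a short tail that holds the cysteine to which the J chain binds. It is shown for Ighm and Igha, the genes whose products Jchain joins, with the tail in capitals after the last 15 bases of the domain before it.
Ighm, tail at chr12:113420870-113420928: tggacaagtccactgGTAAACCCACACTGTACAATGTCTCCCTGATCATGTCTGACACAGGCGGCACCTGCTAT
Igha, tail at chr12:113258771-113258829: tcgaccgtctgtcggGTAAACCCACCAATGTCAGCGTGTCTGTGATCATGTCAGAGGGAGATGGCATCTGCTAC
Both tails had 59 bases and matched at 40 of them (67.8%), compared with 51.9% over the whole coding stretch of the secreted forms.

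Total counts were between 9333244 and 23782520 per library. GFP replicates 2 and 3 stood apart in the rRNA gene CT010467.1, to which 50.9% and 52.2% of their reads were counted, against 2.55% to 16.1% in the other 4 libraries, so that totals without it ran from 4460732 to 22024582. Levels are given as CPM, edgeR's depth-scaled counts, with each library scaled by trimmed mean of M values (TMM), which sets most genes to the same level in all libraries. Ezh2, the gene carried by the virus, was at 22.7 to 26.4 CPM in the GFP libraries and at 65.2 to 65.6 CPM in the Ezh2-Y726D libraries, so that every library matched its label. The 10 RGC markers Rbpms, Pou4f1, Pou4f2, Sncg, Slc17a6, Nefl, Nefm, Nefh, Isl1 and Thy1 were present in all libraries. Their summed level was 491 to 503 CPM in GFP and 467 to 504 CPM in Ezh2-Y726D. Single markers differed at an adjusted p under 0.05 by edgeR. Isl1 was lower (log2 fold change -0.58), and Pou4f1 (0.41) and Thy1 (0.13) were higher. This was 1 of 10 lower and 2 higher, against 13.6% and 13.9% of all genes tested.

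Of the 10 genes, 9 passed the filter on low counts and were tested by edgeR's quasi-likelihood method, with p-values adjusted by Benjamini-Hochberg over 18138 genes. Ighg1 passed the filter through its GFP libraries alone and Iglc2 with 1 GFP library and 3 Ezh2-Y726D libraries at the level required, so both are left out of the counts that follow and described on their own. The other 7, Ighm, Ighg2b, Ighg2c, Igha, Igkc, Iglc1 and Jchain, were at that level in all 6 libraries. At an adjusted p under 0.05, 1 of the 7, Ighg2c, was higher in Ezh2-Y726D, against 13.9% of all genes tested, and 3, Igha, Iglc1 and Jchain, were lower, against 13.6% of all genes. In either direction this was 4 of 7, against 27.5% of all genes. With a fold change over 1.5 added, as the study defines a differentially expressed gene (DEG), 2 were lower (Igha and Iglc1) and 0 higher, against 5.5% of all genes called lower and 8.02% called in either direction. The libraries of the groups did not overlap for 4 of the 7, against 38.6% of all genes. The median log2 fold change of the 7 was -0.02, and that of all genes was 0.00186. Scaled by library totals, which count the rRNA as depth, 65 of all genes passed the test, and the calls of Ighg2c, Igha, Iglc1 and Jchain were lost.

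**Figure D1:**
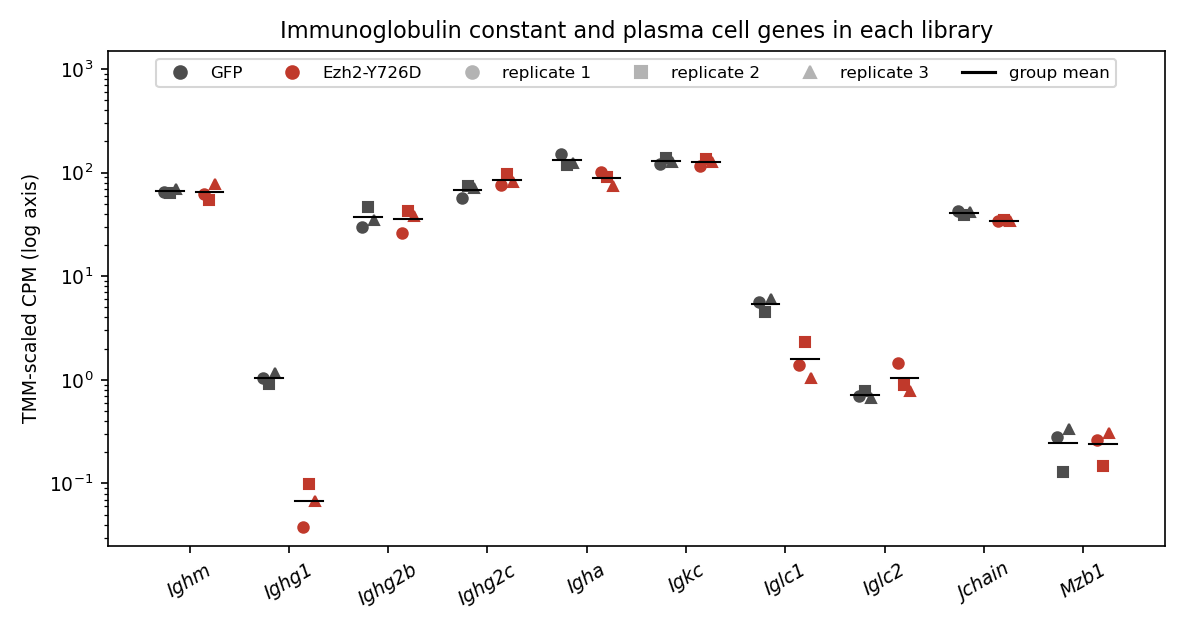
Level of each of the 10 genes in each library, in TMM-scaled CPM on a log axis, for 3 GFP (grey) and 3 Ezh2-Y726D (red) libraries, with symbols for the replicate number and bars for group means. Igha, Igkc, Ighg2c and Ighm lie between 54.3 and 151 CPM in all 6 libraries, and Ighg1 and Iglc1 show the widest gaps between the groups.

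Among the heavy-chain genes, Ighm, the constant gene of IgM, did not pass the test. It was at 65.4, 64.2 and 69.0 CPM in GFP replicates 1 to 3 and at 62.6, 54.3 and 77.4 CPM in Ezh2-Y726D replicates 1 to 3. The Ezh2-Y726D libraries lay on both sides of the GFP libraries, and their spread was wider. Group means were 66.2 ± 2.48 CPM (SD, n = 3) and 64.8 ± 11.7 CPM (SD, n = 3), with a log2 fold change of -0.02 (SE 0.079, adjusted p = 0.92 by edgeR).

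Igha, the constant gene of IgA, fell in Ezh2-Y726D. It had the highest CPM of the heavy-chain genes in every GFP library, at 151, 118 and 124 CPM, and was at 102, 90.1 and 73.7 CPM in Ezh2-Y726D. All 3 Ezh2-Y726D libraries were under the lowest GFP library, from means of 131 ± 17.7 to 88.6 ± 14.1 CPM (SD, n = 3). The log2 fold change was -0.60 (SE 0.080, adjusted p = 8.6e-07 by edgeR), or 1.52-fold lower, which is just past the fold change of a DEG. The fold change fell short of 1.5 without GFP replicate 1 (log2 -0.45), without Ezh2-Y726D replicate 3 (-0.47), with DESeq2 (-0.56), without a filter on counts (-0.58) and with the replicate number as a block (-0.56), each still with an adjusted p under 0.05. Scaled by library totals it was -0.11, and the call was lost (adjusted p = 0.831 by edgeR). It was -0.77 without GFP replicates 2 and 3, the libraries rich in rRNA.

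Ighg1, the constant gene of IgG1, was at 1.05, 0.903 and 1.16 CPM in GFP and at 0.0376, 0.098 and 0.0678 CPM in Ezh2-Y726D. These values rest on 30, 7 and 7 counts in GFP and on 1, 2 and 2 counts in Ezh2-Y726D, where every library was under the floor of 3 counts. Given the depth, the pooled rate in GFP was 15.9 times that in Ezh2-Y726D, with an exact 95% interval of 6.33 to 51.5 that covers counting error only. As Ighg1 entered the test through the group in which it is high, no p is given for it, and the values stand as a description.

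Ighg2b, the constant gene of IgG2b, did not pass the test. It was at 29.7, 47.0 and 35.2 CPM in GFP and at 26.4, 42.8 and 38.2 CPM in Ezh2-Y726D. In both groups replicate 1 was lowest and replicate 2 highest, and the groups overlapped over nearly their whole range. The log2 fold change was 0.01 (SE 0.13, adjusted p = 0.961 by edgeR).

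Ighg2c, the constant gene of IgG2c, passed the test as higher in Ezh2-Y726D. It was at 56.7, 74.8 and 70.8 CPM in GFP and at 75.8, 97.8 and 81.7 CPM in Ezh2-Y726D. The groups did not overlap, although the lowest Ezh2-Y726D library was only just above the highest GFP library. Means rose from 67.4 ± 9.54 to 85.1 ± 11.4 CPM (SD, n = 3), with a log2 fold change of 0.38 (SE 0.080, adjusted p = 0.000447 by edgeR), or 1.31-fold. The call was lost with DESeq2 (log2 fold change 0.35, adjusted p = 0.128). With scaling by library totals it was lost at a log2 fold change of 0.89, where the median of all genes was 0.49 (adjusted p = 0.363 by edgeR). Without GFP replicate 1 it was lost at a log2 fold change of 0.21 (adjusted p = 0.0503 by edgeR). Without GFP replicates 2 and 3 the log2 fold change was 0.58. In counts, Ighg2c exceeded its near copy Ighg2b 1.91, 1.59 and 2.01 times in GFP and 2.87, 2.28 and 2.14 times in Ezh2-Y726D, a ratio that does not depend on the scaling of the libraries.

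**Figure D2:**
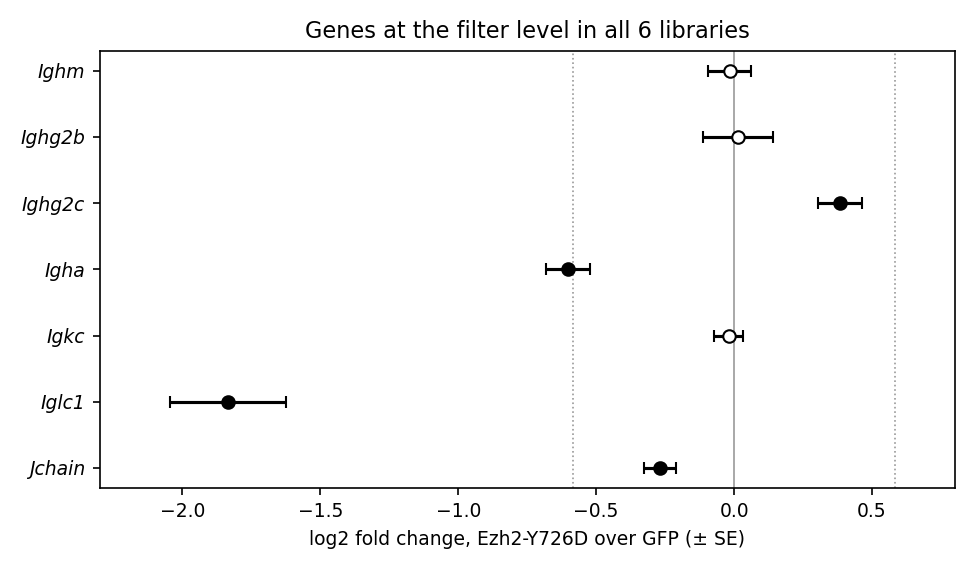
Log2 fold change of Ezh2-Y726D over GFP for the 7 genes at the filter level in all 6 libraries, with SE from edgeR's quasi-likelihood test (3 libraries a group). Filled points have an adjusted p under 0.05, dotted lines mark a fold change of 1.5, and Iglc1 (-1.83) lies farthest from 0.

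Among the light-chain genes, Igkc (chr6:70726435-70726966, plus strand), which encodes the kappa constant region, was the most even in level between the groups. It was at 122, 137 and 126 CPM in GFP and at 115, 136 and 127 CPM in Ezh2-Y726D. The ranges lay almost on each other, with a log2 fold change of -0.02 (SE 0.053, adjusted p = 0.839 by edgeR).

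Of the lambda genes, Iglc1 fell and Iglc2 is described without a p. Iglc1 (chr16:19061618-19062071, minus strand), a lambda constant gene, was at 5.61, 4.51 and 5.97 CPM in GFP and at 1.39, 2.30 and 1.05 CPM in Ezh2-Y726D. It was 3.56-fold lower, from means of 5.37 ± 0.759 to 1.58 ± 0.648 CPM (SD, n = 3), with a log2 fold change of -1.83 (SE 0.21, adjusted p = 7.34e-08 by edgeR). Iglc2 (chr16:19198396-19200351, minus strand), another lambda constant gene, was at 0.702, 0.774 and 0.663 CPM in GFP and at 1.47, 0.882 and 0.780 CPM in Ezh2-Y726D. Every Ezh2-Y726D library of Iglc2 was above every GFP library by a small margin, but the log2 fold change of 0.55 (SE 0.34) did not pass the test (adjusted p = 0.262 by edgeR). Without Ezh2-Y726D replicate 1 it was 0.21. Its GFP values rest on 20, 6 and 4 counts. Of the runs of 50 bases taken from an Iglc2 transcript, 10.5% also occurred in Iglc3, whose coding bases were 96.2% identical. Of the exonic bases of Iglc2, 38 overlapped the joining segment Iglj2, so its counts are uncertain. None of the runs of Iglc1 occurred in the other genes searched, and its coding bases were 73.8% identical to those of Iglc2.

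Of the genes that act with the chains, Jchain (chr5:88519809-88527891, minus strand) was at 42.2, 39.1 and 42.0 CPM in GFP and at 34.1, 34.8 and 34.2 CPM in Ezh2-Y726D. The groups did not overlap, with means of 41.1 ± 1.74 and 34.4 ± 0.376 CPM (SD, n = 3). Jchain was 1.20-fold lower, with a log2 fold change of -0.27 (SE 0.058, adjusted p = 0.000672 by edgeR), and was not a DEG. Per kb of exon, the ratio of Jchain to the sum of Ighm and Igha was 0.184, 0.198 and 0.201 in GFP and 0.190, 0.221 and 0.198 in Ezh2-Y726D. The TMM-scaled level of Jchain thus fell, while its ratio to the heavy chains of the polymeric classes overlapped between the groups. Scaled by library totals, the log2 fold change of Jchain was 0.23, where the median of all genes was 0.49. The call was lost there (adjusted p = 0.639 by edgeR).

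Mzb1 (chr18:35647267-35649367, minus strand) was nearly undetected. It had 8, 1 and 2 counts in GFP and 7, 3 and 9 counts in Ezh2-Y726D, at 0.129 to 0.332 CPM in all 6 libraries, and it did not pass the filter. The pooled rate in GFP was 1.05 times that in Ezh2-Y726D, with an exact 95% interval of 0.450 to 2.32, so a difference within that range was not detectable at this depth. The gene shares 695 exonic bases with an overlapping gene on the same strand, so its counts are uncertain as well.

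Levels of different genes were compared per kb of exon, counting all exonic bases. In GFP, the order of mean CPM per kb on this length was Igkc (241), Ighg2c (50.9), Igha (49.1), Ighm (35.1), Jchain (16.3), Ighg2b (13.9), Iglc1 (11.8), Iglc2 (1.17), Ighg1 (0.401) and Mzb1 (0.203). In Ezh2-Y726D it was Igkc (236), Ighg2c (64.2), Ighm (34.3), Igha (33.2), Jchain (13.7), Ighg2b (13.4), Iglc1 (3.48), Iglc2 (1.70), Mzb1 (0.196) and Ighg1 (0.0262). On this length, Ighg2c and Igha in GFP, and Ighm and Igha in Ezh2-Y726D, were closer to each other than the spread of their libraries. The order depends on the length used. Per kb of the secreted form, a choice made after seeing the data, Igha took 41.2% to 52.9% of the heavy-chain signal in GFP, against 19.6% to 25.8% for Ighg2c. In Ezh2-Y726D, Igha took 29.6% to 40.9% and Ighm 14.9% to 22.9%, so that on the secreted form neither pair overlapped.

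The use of the classes was then compared as the share of each class in the counts per kb of exon of the 5 heavy-chain genes, without Ighg3 and Ighd, a measure that does not depend on the scaling of the libraries. IgA took 38.9%, 29.0% and 30.9% of the heavy-chain signal in GFP and 27.6%, 22.2% and 19.1% in Ezh2-Y726D. The groups did not overlap, with means of 32.9 ± 5.27% and 23.0 ± 4.29% (SD, n = 3). IgG, here the sum of Ighg1, Ighg2b and Ighg2c, took 37.2%, 48.7% and 44.7% in GFP and 48.4%, 58.9% and 52.5% in Ezh2-Y726D. These overlapped narrowly, because GFP replicate 2 was above Ezh2-Y726D replicate 1, and the means were 43.5 ± 5.81% and 53.3 ± 5.29% (SD, n = 3). Within IgG, Ighg2c alone took 29.4%, 37.0% and 35.6% in GFP and 41.3%, 48.4% and 42.6% in Ezh2-Y726D, without overlap. The IgM share overlapped between the groups, with means of 23.5 ± 1.08% and 23.8 ± 4.75% (SD, n = 3) and the Ezh2-Y726D libraries on both sides of GFP. With 3 libraries against 3, an exact permutation test cannot go below 0.1, and no test was made of these shares.

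As a share of the raw counts of the same 5 genes, without the division by length, Igha took 49.7% of GFP replicate 1 (exact 95% binomial interval 48.7% to 50.8%), 38.7% of GFP replicate 2 (36.7% to 40.7%) and 41.2% of GFP replicate 3 (38.9% to 43.5%). In Ezh2-Y726D it took 38.2% (37.1% to 39.3%), 31.6% (30.4% to 32.8%) and 27.2% (26.2% to 28.2%). The intervals of GFP replicates 2 and 3 thus both overlapped that of Ezh2-Y726D replicate 1, while GFP replicate 1 stood above the other GFP libraries by more than the counting error, which is the only error these intervals cover. With the length of the secreted form in place of all exons, mean IgA shares were 46.0% and 34.6% and mean IgG shares 36.8% and 46.6%, in the same directions.

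The kappa share of the light chains, counted over Igkc, Iglc1 and Iglc2 without Iglc3, was higher in Ezh2-Y726D. Iglc3 was at 3.34, 2.00 and 5.14 CPM per kb in GFP and at 1.66, 1.95 and 0.975 CPM per kb in Ezh2-Y726D. Per kb of exon, Igkc took 94.4%, 95.8% and 94.3% of the light-chain signal in GFP and 97.5%, 97.5% and 98.5% in Ezh2-Y726D. The groups did not overlap, and lambda correspondingly went from 5.57%, 4.18% and 5.67% to 2.47%, 2.48% and 1.48%. The means of kappa were 94.9 ± 0.835% and 97.9 ± 0.574% (SD, n = 3). Of the genes behind this share, Iglc1 passed the test, Igkc did not, and Iglc2 is given no p.

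**Figure D3:**
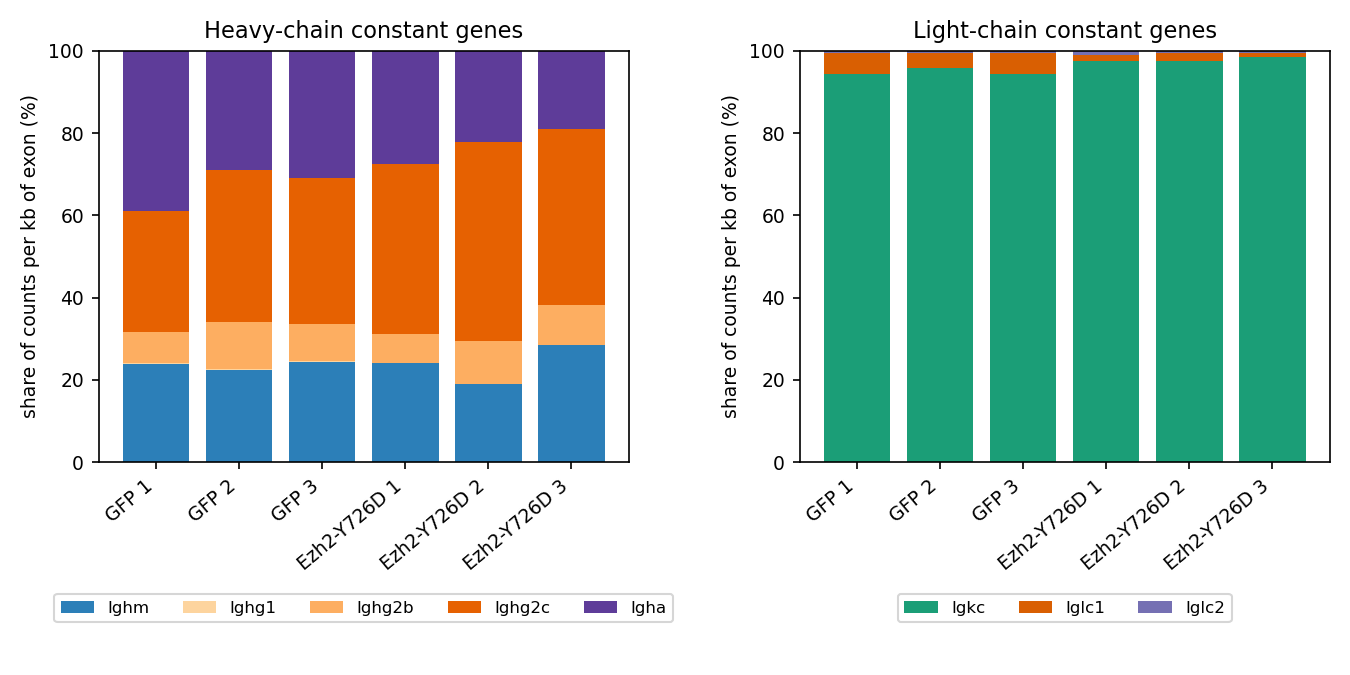
Share of each gene in the heavy-chain (left) and light-chain (right) constant counts per kb of exon (%), 1 stacked bar for each of 3 GFP and 3 Ezh2-Y726D libraries. Igha takes 29.0% to 38.9% of the heavy-chain signal in GFP and 19.1% to 27.6% in Ezh2-Y726D, and Igkc takes 94.3% to 98.5% of the light-chain signal.

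The summed level of the 8 constant genes was 432, 447 and 432 CPM in GFP and 384, 424 and 400 CPM in Ezh2-Y726D. The Ezh2-Y726D libraries were all lower, with means of 437 ± 8.57 and 403 ± 20.3 CPM (SD, n = 3) and a log2 ratio of -0.12, which turned to 0.39 with scaling by library totals. Without the rRNA gene the 8 genes made up 0.0584% to 0.0603% of the counts in GFP and 0.0515% to 0.0567% in Ezh2-Y726D. The heavy-chain sum was 300 to 305 CPM in GFP and 267 to 285 CPM in Ezh2-Y726D, whereas the light-chain sum overlapped, at 128 to 142 CPM and 117 to 139 CPM. The ratio of light to heavy chains per kb overlapped as well, at 1.67 to 1.76 and 1.60 to 1.72. Per kb of the secreted form this ratio was 0.935 to 1.03 in GFP and 0.979 to 1.07 in Ezh2-Y726D, again with overlap, and with the higher mean in Ezh2-Y726D rather than in GFP.

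Within a group, several of these genes varied more between libraries than other genes of like level. Among the 6430 genes tested with a mean of 25 to 200 CPM, the median coefficient of variation (CV) was 4.69% in GFP and 3.30% in Ezh2-Y726D, and its 95th percentile was 10.8% and 7.76%. The CV of Ighg2b was 23.7% in GFP and 23.6% in Ezh2-Y726D, that of Ighg2c 14.2% and 13.4%, and that of Igha 13.6% and 15.9%. These 3 genes were past the 95th percentile in both groups. Ighm was near the median in GFP (3.74%) and far above the 95th percentile in Ezh2-Y726D (18.1%), and Igkc, at 6.05% and 8.55%, was past the 95th percentile in Ezh2-Y726D alone. Jchain, at 4.22% and 1.10%, was under the median in both groups.

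The other constant genes of a fixed list were scarce. Ighg3, the constant gene of IgG3, had 16, 41 and 24 counts in GFP and 0, 14 and 58 in Ezh2-Y726D, an uneven spread within both groups that did not pass the test (adjusted p = 0.133 by edgeR). Ighd, the constant gene of IgD on mature naive B cells, had 13, 4 and 3 counts in GFP and 2, 1 and 4 in Ezh2-Y726D. It was not tested, and the pooled rate in GFP was 5.17 times that in Ezh2-Y726D (exact 95% interval 2.10 to 14.5, counting error only). Iglc3, with 43, 7 and 14 counts in GFP and 20, 18 and 13 in Ezh2-Y726D, was lower with a log2 fold change of -1.17 (adjusted p = 0.00696 by edgeR), and it shares sequence with Iglc2. Ighe and Iglc4 were not matched to an identifier. Of the receptors of antibodies, Fcgrt, the neonatal Fc receptor that carries IgG across cells, was at 16.8 ± 0.233 CPM in GFP and 14.6 ± 1.74 CPM in Ezh2-Y726D (SD, n = 3) and did not pass the test (adjusted p = 0.11 by edgeR). Fcmr and Fcamr, which bind IgM, had 3 counts or fewer in every library, and Pigr was not matched.

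Of 16 B cell genes, 10 were tested and 8 were at the filter level in all 6 libraries. Of these 8, 7 were lower, all of them DEGs, and 1 was higher, with a median log2 fold change of -0.86, against 13.6% of all genes lower and 5.5% called DEGs lower. Cd74, the invariant chain of MHC class II, which macrophages also express, fell from 472 ± 17.0 to 267 ± 11.7 CPM (SD, n = 3) and made up most of their summed level. That sum was 503 to 538 CPM in GFP and 296 to 321 CPM in Ezh2-Y726D. Cd37, a tetraspanin of leukocytes, fell from 10.4 to 6.54 CPM on average, and Cd22, an inhibitory receptor of B cells, from 8.32 to 3.12 CPM. Ebf1, a transcription factor of early B cells that other tissues use too, rose from 22.1 to 27.8 CPM. The genes closest to the B cell receptor were low. Cd79a, a signalling chain of that receptor, was at 0.860 CPM in GFP and 0.527 CPM in Ezh2-Y726D on average and did not pass the test (adjusted p = 0.251 by edgeR). Ms4a1, which encodes CD20, fell from 1.11 to 0.518 CPM and Cd79b from 1.87 to 0.987 CPM (adjusted p = 0.0353 and 0.0094 by edgeR).

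Of 16 genes of the plasma cell program, 15 were tested and 14 were at the filter level in all 6 libraries. Of these 14, 7 were lower, 6 of them DEGs, against 13.6% and 5.5% of all genes, and none was higher, with a median log2 fold change of -0.20. Cd38, an ectoenzyme that many leukocytes carry, fell most, from 13.3 ± 1.26 to 4.74 ± 0.303 CPM (SD, n = 3). Irf4 and Prdm1, transcription factors of plasma cells that also act in T cells, fell from 12.5 to 8.33 CPM and from 8.53 to 5.67 CPM, with log2 fold changes of -0.60 and -0.63. Slamf7, a receptor of plasma cells and other lymphocytes, fell from 11.1 to 6.72 CPM. Txndc5, a protein disulfide isomerase of the endoplasmic reticulum, fell from 54.3 to 47.5 CPM. Sdc1, the plasma cell surface marker CD138, was at 3.78 ± 1.35 and 3.28 ± 0.573 CPM (SD, n = 3) and did not pass the test (adjusted p = 0.532 by edgeR). Xbp1, the transcription factor of the secretory program, which many cells express, was at 82.0 and 75.9 CPM on average (adjusted p = 0.0535 by edgeR). Tnfrsf17, the plasma cell receptor BCMA, had 2 counts or fewer in every library. Jchain, Igha and Igkc were thus read at 34.1 CPM or more in every library. In the same libraries Tnfrsf17 and Mzb1, whose counts are uncertain, were at or near 0. Other genes of the list lay between. Over the 6 libraries, Tnfrsf13b was at 3.23 to 6.14 CPM and Pou2af1 at 1.29 to 2.99 CPM. Fkbp11 was at 1.90 to 2.49 CPM and Derl3 at 0.903 to 1.99 CPM.

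Markers of other cells of the immune system were read in the same libraries, beside 13.6% of all genes lower, 5.5% called DEGs lower and 13.9% higher. All 12 T cell genes were lower, 11 of them DEGs, with a summed level of 169 to 171 CPM in GFP and 96.0 to 106 CPM in Ezh2-Y726D and a median log2 fold change of -0.75. Of 8 genes of monocytes and macrophages, 7 were lower, with sums of 634 to 705 and 174 to 206 CPM and a median of -1.45. Of 6 NK cell genes, 4 were lower, with sums of 29.9 to 35.9 and 19.1 to 21.4 CPM. Among 7 microglial genes, 3 were lower and 2 higher, with sums of 400.1 to 450.2 CPM in GFP and 316 to 371 CPM in Ezh2-Y726D. The neutrophil genes S100a8, S100a9, Ly6g and Retnlg had 3 counts or fewer in every library, whereas Csf3r, the receptor of granulocyte colony-stimulating factor and the only gene of that list tested, fell from 19.2 ± 1.47 to 11.8 ± 0.784 CPM (SD, n = 3), with a log2 fold change of -0.68 (adjusted p = 2.83e-07 by edgeR). The 5 erythroid genes found, which report blood, summed to 2.71 to 5.47 CPM in GFP and 5.64 to 8.54 CPM in Ezh2-Y726D. The share of these cells in the differences of the antibody genes was not tested. Measured beside them, the log2 ratio of the summed constant genes was -0.12.

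**Figure D4:**
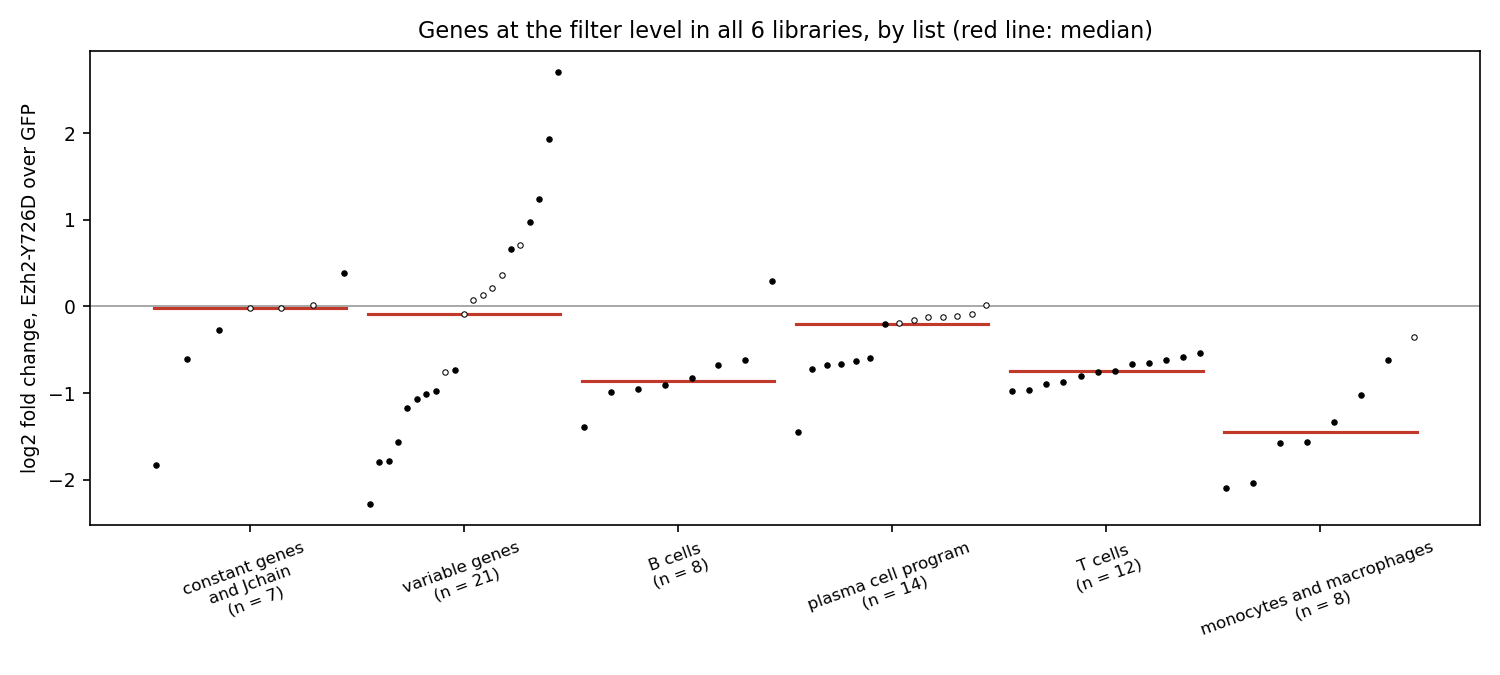
Log2 fold change of Ezh2-Y726D over GFP (edgeR, 3 libraries a group) of each gene at the filter level in all 6 libraries, in 6 lists, filled where the adjusted p was under 0.05, with the median of each list as a red line. The medians are -0.02 for the constant genes with Jchain, -0.09 for the variable genes, -0.20 for the plasma cell program, -0.86 for B cells, -0.75 for T cells and -1.45 for monocytes and macrophages.

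The variable genes are joined to the constant genes in a B cell and differ between B cell clones. Of 167 in the table, 66 were tested and 21 were at the filter level in all 6 libraries. Of these 21, 5 were higher and 9 lower, all 14 of them DEGs, with a median log2 fold change of -0.09, against 27.5% of all genes past the test and 8.02% called DEGs. Variable genes are a family of near copies, so single counts are uncertain. Those with at least 1 count numbered 111, 100 and 94 in GFP and 111, 116 and 115 in Ezh2-Y726D, and 96, 97 and 94 against 101, 101 and 99 when every library was thinned to the 4460732 counts of the shallowest. Their summed level overlapped, at 141 to 171 CPM in GFP and 135 to 147 CPM in Ezh2-Y726D.

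The variable gene with the most counts was read in each library. Ighv1-52 led in GFP replicate 1, with 295 counts or 15.3% of all heavy-chain variable counts, and Ighv1-64 led in GFP replicates 2 and 3, with 56 and 75 counts or 11.4% and 15.1%. In all 3 Ezh2-Y726D libraries Ighv1-42 led, with 247, 308 and 278 counts or 14.95%, 21.3% and 15.8%. Ighv1-42 was at 0.737, 2.06 and 5.31 CPM in GFP and at 9.28, 15.1 and 9.42 CPM in Ezh2-Y726D, values that describe a gene chosen for its lead there. Ighv1-52 was at 10.3, 6.19 and 8.46 CPM in GFP and at 5.94, 6.86 and 3.86 CPM in Ezh2-Y726D. Ighv1-64 was at 6.95, 7.22 and 12.4 CPM in GFP and at 2.63, 3.38 and 1.32 CPM in Ezh2-Y726D. Ighv1-52 and Ighv1-64 were chosen for their lead in GFP libraries, so their values are a description too. Igkv6-32 led among the kappa variable genes of all 6 libraries, with 19.0% to 25.1% of their counts.

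The 5 genes outside the immunoglobulin genes whose level across the 6 libraries was most like the summed constant genes were Snrnp200, BC065397, Iars, Dnpep and Rpl26, with Pearson's r of 0.991, 0.986, 0.982, 0.980 and 0.980 on log2(CPM + 1) among 16003 genes compared. These r describe 6 libraries that share the scaling and the 2 groups, and nothing is read from them.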

How the data were processed

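Total RNA of CD90.2-sorted retinal cells was sequenced in 6 libraries with a stranded kit. The authors deposited raw read counts for each Ensembl gene, not normalized, and all 6 sample columns were used. Their processing notes name STAR 2.7.0d and GRCm38; the counting tool, annotation and strand setting are not given in the sources used here. Symbols were matched for 32325 of 32371 identifiers, and coordinates, exon lengths and sequences came from GENCODE vM21 on GRCm38. CPM per kb used all exonic bases of a gene. All 6 libraries entered edgeR's quasi-likelihood test (edgeR 4.0.16, limma 3.58.1, R 4.3.3), with TMM factors, filterByExpr (minimum 10 counts, total 15) and Benjamini-Hochberg adjustment over 18138 genes. SE was the log2 fold change over the square root of F. The test was checked on simulated counts. Alternatives were other scalings, filters, DESeq2 1.42.0, the replicate number as a block and leaving out libraries. Exact 95% counting intervals are given for Ighg1, Iglc2, Mzb1 and Ighd, and not for the other genes with few counts that were not tested.

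The members and lists were chosen with earlier results of these data known. Named genes are the members, the other constant genes and receptors, up to 4 genes past the test by mean CPM in the B cell and plasma cell lists with markers near 0, the leading variable gene per library and the 5 genes most like the summed level. Prdm1, Sdc1, Xbp1, Tnfrsf13b, Pou2af1, Fkbp11, Derl3, Cd79b and Ms4a1 were named after their values were seen. The libraries were not the same sample sequenced again, as counts within a group differed by more than sampling noise (chi-square per degree of freedom 1.49 to 3.03). Some further items are not reported here.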

Additional observations from a re-analysis of the deposited data

How the results depend on the processing

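Of the alternative values of group results, 88 stayed close to the main value, 7 moved further and 3 reversed. Close means counts within 1.5 times and other values within the spread between replicates. Counts of genes in this tally cover all members tested, Ighg1 and Iglc2 included, and not only the 7. Falls of the DEGs lower from 2 to 1 among the 7, without a filter, with the block, without GFP replicate 1 or without Ezh2-Y726D replicate 3, thus count as close in it. Of the alternative values of single genes, 103 kept direction and side of the test's threshold, 5 no longer passed it and 15 reversed, all 15 of Ighm, Ighg2b, Igkc or Jchain. Scaling by library totals, in which the rRNA of GFP replicates 2 and 3 counts as depth, moved the median over all genes to 0.49 on the log2 scale and the number of genes past the test from 4988 to 65. It left 0 of the 7 genes past the test by edgeR (2 at an unadjusted p under 0.05), against 0.254% of all genes higher and 0.105% lower. This scaling reversed the log2 fold change of Ighm to 0.48, of Igkc to 0.49, of Jchain to 0.23 and the log2 ratio of the summed level to 0.39. Relative to that median, Igha was at -0.60, Iglc1 at -1.82, Jchain at -0.26 and Ighg2c at 0.39. DESeq2 left 0 of the 7 higher, 3 lower and 1 DEG lower, against 10.4%, 9.52% and 4.43% of all genes. The number of DEGs lower among the 7 also went from 2 to 1 without a filter, with the block, without GFP replicate 1 and without Ezh2-Y726D replicate 3. The log2 fold change of Ighg2b, which did not pass any test, was -0.0488 with DESeq2 and -0.00637 with totals without CT010467.1, and that of Igkc was 0.045 without GFP replicates 2 and 3, an alternative added after seeing the data. Leaving out each library in turn gave 0 to 1 genes higher past the test, the 0 without GFP replicate 1. It moved the log2 fold change of Ighm between -0.17 and 0.0864, of Ighg2b between -0.23 and 0.20, of Igkc between -0.0801 and 0.0431, and the difference in IgM share between -2.08 and 2.67 percentage points. Without Ezh2-Y726D replicate 1 the log2 fold change of Iglc2 was 0.21 against 0.55. Thinned to the shallowest library, the mean number of variable genes with a count in Ezh2-Y726D was 100.3.

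With the replicate number as a block, 1 of the 7 was higher and 3 were lower past the test, with 1 DEG lower, against 14.7%, 14% and 5.41% of all genes, and Ighg2b was at -0.0831. Over all genes the replicate block gave 5222 calls, against 4988 without it. Deviations of libraries with the same number correlated at 0.137, 0.051 and 0.039, not all over 0.1, so the numbers were not taken as pairs, although every library correlated best with its own number.

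Depth limits Ighg1, Iglc2, Ighd, Tnfrsf17 and Mzb1, for which 3 counts correspond to 0.105 to 0.498 CPM in GFP. No group had 4 samples or more, so single libraries were not tested as outliers. Where reads were divided among near copies, the counting method is not known.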
